A study of Mus musculus with 8 samples.

Results

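The widened peaks are H2AK119ub peaks of mouse epidermal progenitors that cover at least 1.5 times as many base pairs in Eed conditional knockout (Eed cKO) as in control. They were chosen from their widths: a control peak had to overlap exactly 1 Eed cKO peak by at least 1 bp, that Eed cKO peak had to overlap no other control peak, and the Eed cKO width divided by the control width had to be 1.5 or more. Of 1470 such 1-to-1 pairs, 311 (21.2%) were widened, which is 12.2% of the 2541 Eed cKO peaks and 6.73% of the 4621 control peaks. H2AK119ub was profiled by ChIP-seq in Eed cKO mice, whose genotype the labels give as Eed-/-, and in control mice, with 2 H2AK119ub libraries per genotype among the 8 libraries of the series. The cells of both groups were taken at postnatal day 0 and sorted by flow cytometry as EpCAM+, Sca1+, α6-integrin high cells of the interfollicular epidermis, with 400000 cells per immunoprecipitation. The labels used here name neither the Cre driver of the knockout nor litters or sex. Each genotype is represented by 1 peak list without heights or read numbers, so there is no replicate error, the depth is unknown, and no difference below carries a test. The loss of Eed itself cannot be checked from peak positions.

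H2AK119ub is histone H2A with a single ubiquitin on a lysine of its tail, placed by the Ring1 subunits of Polycomb repressive complex 1 (PRC1). Eed belongs to the core of the other Polycomb complex, PRC2, and is needed for its methylation of lysine 27 of histone H3. Some PRC1 complexes are recruited through that methylation and others without it, and both marks are known from CpG-rich promoters of silent developmental genes.

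Growth brought a widened peak to 45 genes (0.206% of coding genes) whose ends the control peak had not been near. For 9 of them the Eed cKO peak covered a listed start, which was not always gained, since that of Vsig8 already lay under the control peak. The promoters of 4 of these 9 genes are shown, taken in order of the base pairs their pair gained. They are written 5′ to 3′ on the strand of the gene, from 250 bases before to 50 after the start, from RefSeq for GRCm38.p6 (mm10), with every CG dinucleotide in capitals.
Fgfr3: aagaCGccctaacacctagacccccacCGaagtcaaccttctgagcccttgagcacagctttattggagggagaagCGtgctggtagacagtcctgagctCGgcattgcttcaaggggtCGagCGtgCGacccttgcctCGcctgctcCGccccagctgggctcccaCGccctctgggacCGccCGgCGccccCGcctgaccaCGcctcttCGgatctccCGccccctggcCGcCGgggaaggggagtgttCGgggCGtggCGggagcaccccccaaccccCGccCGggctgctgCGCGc
Phlda2: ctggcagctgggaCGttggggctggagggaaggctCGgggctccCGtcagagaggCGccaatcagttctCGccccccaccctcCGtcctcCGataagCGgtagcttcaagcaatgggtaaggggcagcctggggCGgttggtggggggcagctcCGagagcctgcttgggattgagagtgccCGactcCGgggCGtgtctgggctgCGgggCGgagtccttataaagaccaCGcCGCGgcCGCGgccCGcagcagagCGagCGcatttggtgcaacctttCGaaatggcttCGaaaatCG
Unc13a: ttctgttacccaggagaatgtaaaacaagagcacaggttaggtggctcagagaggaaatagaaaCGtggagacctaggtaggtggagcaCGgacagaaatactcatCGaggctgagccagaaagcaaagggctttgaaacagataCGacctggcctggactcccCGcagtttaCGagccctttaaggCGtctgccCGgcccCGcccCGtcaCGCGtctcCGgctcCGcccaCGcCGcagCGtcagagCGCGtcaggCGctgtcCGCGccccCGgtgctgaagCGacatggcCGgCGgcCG
Btbd17: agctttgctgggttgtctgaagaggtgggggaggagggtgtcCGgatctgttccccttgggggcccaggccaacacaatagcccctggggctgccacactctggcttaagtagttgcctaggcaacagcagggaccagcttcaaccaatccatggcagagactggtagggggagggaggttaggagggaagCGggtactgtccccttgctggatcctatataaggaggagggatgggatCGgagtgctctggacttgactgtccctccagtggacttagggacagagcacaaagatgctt
The Fgfr3 promoter lies at chr5:33721474-33721773 on the plus strand, and its start is 29750 bp from the nearest edge of the control peak. The Phlda2 promoter lies at chr7:143502475-143502774 on the minus strand, with its start 9233 bp from the control peak. The Unc13a promoter, at chr8:71671708-71672007 on the minus strand, has its start 8764 bp away, and the Btbd17 promoter, at chr11:114795843-114796142 on the minus strand, 8427 bp away. The first 3 are CpG-rich, with 26, 26 and 27 CG per 300 bases, whereas Btbd17 has 3. Over all 41 listed starts in gained sequence the median was 24 CG per 300 bases, with quartiles of 12 and 31. It was 24.5 over the 56 starts under the control peaks of the widened pairs, 20 over the 1373 starts under any control peak, and 13 over the 21263 coding promoters of the table, with quartiles of 4 and 24. The promoter table holds 79.9% of coding genes, so starts of the other genes are missing from all of these medians.

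Widened and narrowed pairs were about equally frequent. The 311 widened pairs made up 21.2% of all 1-to-1 pairs (95% Wilson interval 19.1% to 23.3%, counting error only), and 302 pairs, 20.5%, were narrowed to 0.667 of the control width or less. The other 857 pairs, 58.3%, kept their width within 1.5-fold. Over all pairs the median ratio of Eed cKO to control width was 1.02, with quartiles of 0.74 and 1.41. These shares describe the lists that the choice was made from and support nothing further.

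The widened Eed cKO peaks had a median width of 6978 bp (quartiles 4539 and 10471), and their control peaks 3024 bp (2010 and 4856). In narrowed pairs the medians were 4426 bp in Eed cKO and 10113 bp in control, and in pairs within 1.5-fold 5947 bp in Eed cKO and 5768 bp in control. The median ratio of the widened pairs was 1.97, 151 pairs reached a ratio of 2, 50 a ratio of 3 and 10 a ratio of 5. Over all 1470 pairs the median width was 5776 bp in Eed cKO and 5724 bp in control. At the median the widened peaks were wider than the usual pair in Eed cKO and narrower than it in control. A choice by the ratio of both widths favours both of these differences.

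**Figure D1:**
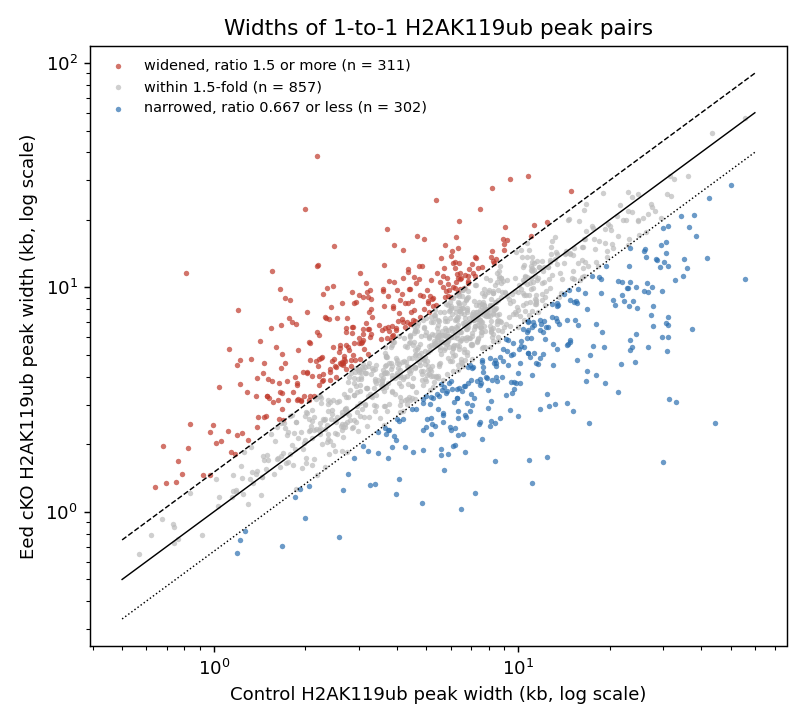
Width of each 1-to-1 pair in Eed cKO (y axis, kb, log scale) against control (x axis, kb, log scale), 1 point per pair. The 311 widened pairs lie on or above the dashed line at a ratio of 1.5 and reach 17.72, the 302 narrowed pairs lie on or below the dotted line, and the solid line marks equal width.

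Just inside the threshold were a pair on chromosome 6 with 9961 bp in Eed cKO and 6633 bp in control (ratio 1.5017), a pair on chromosome 7 with 9532 bp in Eed cKO and 6340 bp in control (1.5035) and a pair on chromosome 8 with 1459 bp in Eed cKO and 970 bp in control (1.5041). Just outside were pairs on chromosome 5 with 2661 bp in Eed cKO and 1779 bp in control (1.4958), on chromosome 2 with 6065 bp in Eed cKO and 4056 bp in control (1.4953) and on chromosome 12 with 2483 bp in Eed cKO and 1661 bp in control (1.4949). The pairs on either side of the threshold hardly differ.

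How often a pair was widened depended on which width was used to sort the pairs. Sorted by Eed cKO width into 5 classes of 294 pairs, the narrowest to the widest class held 10.5%, 19.4%, 20.7%, 22.1% and 33.0% widened pairs. Sorted by control width, the same classes held 47.3%, 30.3%, 18%, 8.5% and 1.7%. The 2 orders run in opposite directions, which the rule favours, since each of these widths is part of the ratio. With the geometric mean of both widths, which favours neither list, the shares were 29.3%, 24.8%, 21.8%, 20.1% and 9.86%, against 12.6%, 21.1%, 18.7%, 18% and 32.3% of narrowed pairs. On that scale the widened pairs were the larger group among the narrow peaks and the smaller one among the widest.

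**Figure D2:**
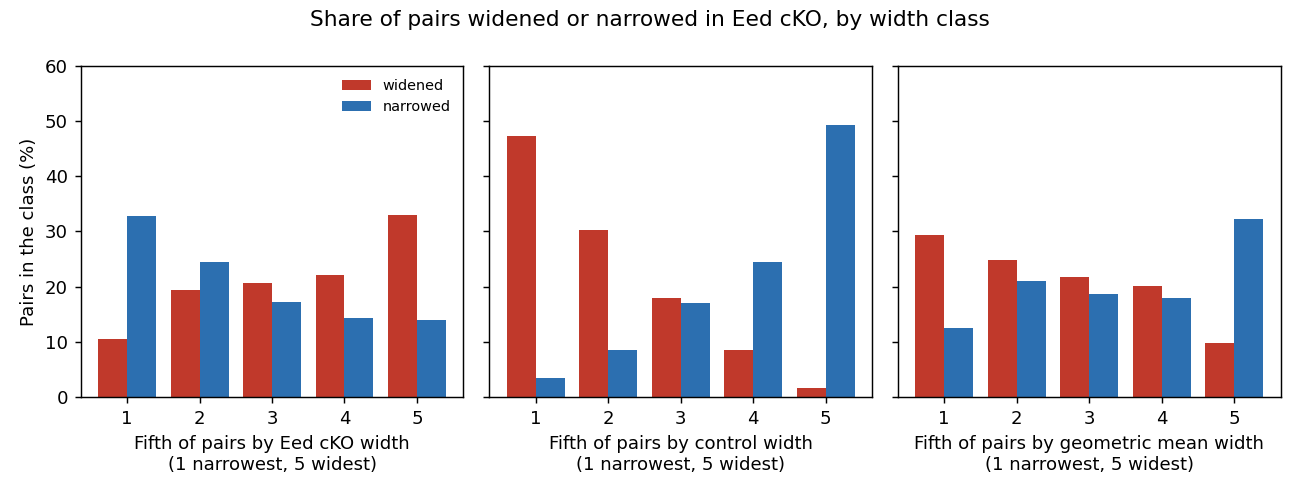
Percent of pairs (y axis) that were widened (red) or narrowed (blue) in Eed cKO, in 5 classes of 294 pairs from the narrowest (1) to the widest (5), sorted by Eed cKO width, control width and their geometric mean. Widened pairs range from 10.5% to 33.0% along Eed cKO width and from 47.3% to 1.7% along control width.

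In total the widened peaks gained 1411 kb outside their control peaks and gave up 38.2 kb inside them, a net 1373 kb. The net of the narrowed pairs was -2372 kb and that of all pairs together -1059 kb, Eed cKO minus control. The 1411 kb are 8.48% of the 16.6 Mb of the Eed cKO list. The median pair gained 3412 bp (quartiles 2141 and 5613), 20 pairs gained 10 kb or more and 12 gained less than 1 kb. The 31 pairs that grew most held 28.7% of the gained sequence. Since each Eed cKO peak of a pair overlaps a single control peak, none of the gained sequence lay under a control peak.

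Both edges usually moved outward, but often by unlike amounts. In 231 of 311 widened pairs, 74.3% (69.1% to 78.8%), the Eed cKO peak extended past the control peak on both sides, and in 80 pairs on one side only. The edge that moved more gained a median of 3029 bp and the other edge 343 bp. Taken pair by pair, the larger edge held a median of 89.6% of the outward growth, and in 198 pairs, 63.7% (58.2% to 68.8%), it held 80% or more. Of these 198 one-sided pairs, 95 grew toward lower coordinates, 48.0% (41.1% to 54.9%). In the 80 pairs that grew on one side only, the other edge lay a median of 209 bp inside the control edge (range 0 to 3417), and 1 kb or more inside in 10 pairs. The control peak was wholly contained in the Eed cKO peak in 233 pairs, 74.9%, and less than 50% of it was covered in 3 pairs.

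**Figure D3:**
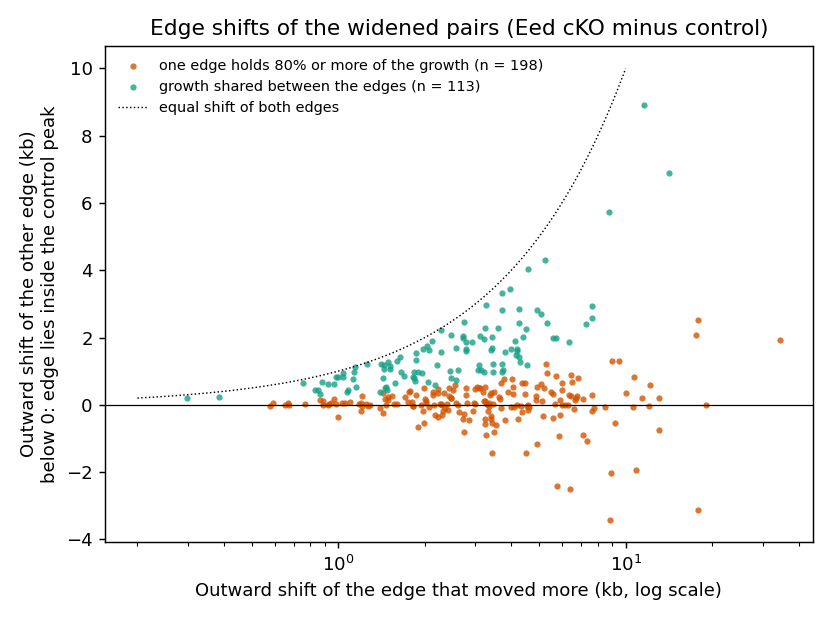
Outward shift of the edge that moved more (x axis, kb, log scale) against the shift of the other edge (y axis, kb, below 0 where that edge lies inside the control peak) for each of the 311 widened pairs, Eed cKO minus control. The 198 orange points are pairs with 80% or more of the growth on one edge, the 113 green points pairs with shared growth, and the dotted line marks equal shifts.

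Growth was split nearly evenly between the upstream and the downstream side of gene starts. The control peak covered listed gene starts, all of one strand, in 48 widened pairs. There the upstream edge gained a median of 1904 bp and the downstream edge, into the gene, 1804 bp. The downstream edge gained more in 25 of 48 pairs, 52.1% (38.3% to 65.5%), and the one-sided pairs split into 12 downstream and 14 upstream. In the 427 other pairs that could be oriented in this way the upstream edge moved by a median of -258 bp, the downstream edge by -431 bp, and the downstream edge had the larger value in 46.8%. In 51 widened pairs the Eed cKO peak lay inside a gene span of known strand and not within 2000 bp of a gene end. There the larger growth pointed to the 3′ end in 23, 45.1%. Pairs that grew to a gene end are left out of this count.

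The largest gain was made by the pair upstream of Fgfr3, the fibroblast growth factor receptor that restrains bone growth and is also expressed in keratinocytes. The Eed cKO peak spanned chr5:33687881-33726517, 38637 bp, against 2181 bp at chr5:33689794-33691974 in control, a ratio of 17.72. Its right edge had moved by 34543 bp and its left by 1913 bp, so that the peak covered 31.2% of the gene span in Eed cKO and 0.0% in control. In control no peak lay within 2000 bp of either end of Fgfr3.

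The pair at Wnt6 and Wnt10a, which encode Wnt ligands, had 30472 bp in Eed cKO (chr1:74767630-74798101) and 9419 bp in control, a ratio of 3.24. It grew by 14166 bp on the side of Wnt6, over a listed Wnt6 start that lies 9904 bp from the control peak, and by 6887 bp on the side of Wnt10a, a ligand needed for hair and tooth development. The second pair at Wnt10a had 7091 bp in Eed cKO and 4576 bp in control (1.55) and began 458 bp after the first one in Eed cKO. Together both peaks covered nearly the whole span of Wnt10a, with 50.0% under the first and 46.2% under the second in Eed cKO, against 0.0% and 34.3% in control.

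At the type I keratin genes on chromosome 11 the peak covered 31225 bp in Eed cKO (chr11:100125550-100156774) and 10751 bp in control. It held all of Krt19 in both lists, and all of Krt15, a keratin of basal epidermis and of the hair follicle bulge, in Eed cKO alone, where its left edge had moved by 11574 bp and its right by 8900 bp. Krt15 and Krt19 were the only 2 of 23 basal keratinocyte genes near an Eed cKO peak of any width, and 4 of the 23 were near a control peak. Krt1, the type II keratin of the suprabasal layers, had a peak of 6579 bp in Eed cKO and 3655 bp in control (1.80), which covered 42.2% of the gene span in Eed cKO and 0.0% in control.

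Several of the largest gains were almost wholly on one side. The pair at Irx4, a homeobox gene of the Iroquois family, had 19704 bp in Eed cKO (chr13:73254713-73274416) and 6408 bp in control. It grew by 13081 bp on the left and 215 bp on the right, over the whole Irx4 span, of which 18.2% lay in the control peak. At Col26a1, a collagen gene, the peak had 24421 bp in Eed cKO and 5381 bp in control, with 19049 bp gained on the right and the left edge 9 bp inside. At Adgrb1, an adhesion receptor that recognises dying cells, it had 22258 bp in Eed cKO and 7499 bp in control. Its right edge moved outward by 17890 bp while the left edge lay 3131 bp inside the control peak, so this peak was displaced as well as widened. Inside Zfhx3, a zinc finger homeobox gene, a peak of 27834 bp in Eed cKO, against 8198 bp in control, grew mostly on the left, by 17563 bp.

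**Figure D4:**
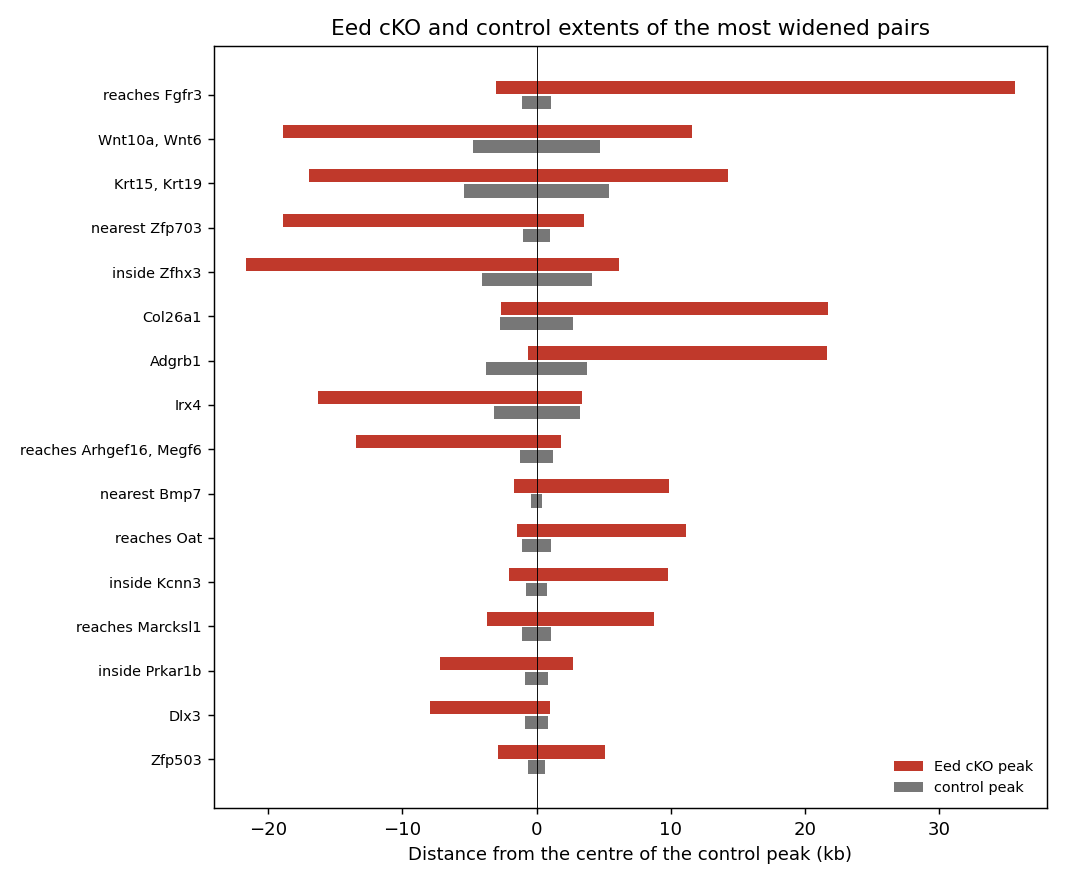
Extent of the Eed cKO peak (red, upper bar) and the control peak (grey, lower bar) in the pairs with the 10 largest ratios or the 10 largest gains, 1 pair left out, placed by distance from the centre of the control peak (x axis, kb) and ordered by base pairs gained. Labels name genes at an end of the control peak, otherwise genes reached, the gene around the peak or the nearest gene; at Fgfr3 the Eed cKO peak extends 34543 bp past the control peak on one side.

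Some of the largest ratios belonged to peaks that were small in control and lay away from gene ends. The pair with 11590 bp in Eed cKO and 809 bp in control on chromosome 2 (ratio 14.33) was 90414 bp from its nearest gene, Bmp7, a ligand of the bone morphogenetic protein family. The pair with 22405 bp in Eed cKO and 1997 bp in control on chromosome 8 (11.22) was 83954 bp from Zfp703, a zinc finger gene. Within gene spans were a pair in Kcnn3, a potassium channel gene (11833 bp in Eed cKO, 1555 bp in control, 7.61), and a pair in Prkar1b, a regulatory subunit of protein kinase A (9860 bp in Eed cKO, 1655 bp in control, 5.96). The pair at Zfp503, a transcriptional repressor gene, was also small in control but lay at a gene end in both lists. It had 7967 bp in Eed cKO and 1200 bp in control (6.64), and covered 66.0% of the gene in Eed cKO and 0.0% in control.

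Fewer of the widened peaks lay at gene ends than of the other pairs. An end of a coding gene lay within 2000 bp of 158 of the 311 widened Eed cKO peaks, 50.8% (45.3% to 56.3%), against 57.9% of narrowed pairs and 63.4% of pairs within 1.5-fold. A further 67 widened peaks, 21.5%, lay inside a gene span and 86, 27.7%, outside. The control peaks of the widened pairs were at gene ends in 44.7%, so growth itself had brought 20 pairs to an end, and the control peaks of all other pairs in 63.0% of 1159. The median distance of the 86 outside peaks to the nearest gene was 36434 bp, and 38 of them were more than 50 kb away. Narrow control peaks are frequent among the widened pairs by the rule, and what part width has in their location was not tested. Of the gained base pairs 55.0% lay in gene spans, against 57.7% of the base pairs of the control peaks they grew from.

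**Figure D5:**
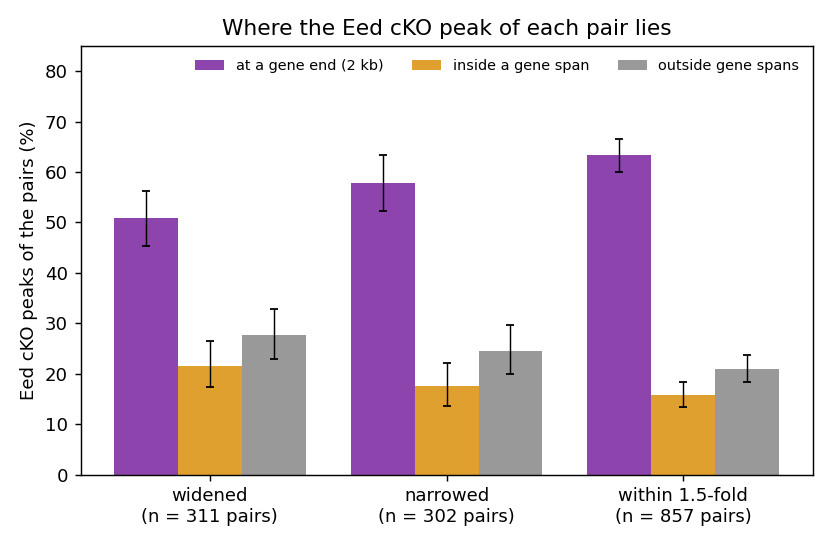
Percent of Eed cKO peaks (y axis) at a gene end, inside a gene span or outside gene spans for 311 widened, 302 narrowed and 857 other pairs, with 95% Wilson intervals as error bars (counting error only). Peaks at gene ends are 50.8% of widened, 57.9% of narrowed and 63.4% of other pairs.

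Few of the grown edges ended near another control peak. Measured from the Eed cKO edge, at the 540 edges that moved outward and had a further control peak on that side, the next control peak was a median of 86408 bp away, within 2 kb at 3.7% and within 10 kb at 14.1%. For the 2312 Eed cKO edges of all other pairs the median was 106461 bp, with 4.67% within 2 kb and 15.8% within 10 kb. By the rule an Eed cKO peak that ran into a second control peak is not a 1-to-1 pair, so joined peaks are absent from these counts.

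Growth brought the mark to a small set of genes. An Eed cKO peak lay within 2000 bp of an end of 1620 coding genes, 7.40% of 21887. A widened Eed cKO peak did so at 213 genes, 0.973%, which is 13.1% of the 1620. Of these, 45 genes (0.206% of coding genes) were reached, meaning that the Eed cKO peak of a pair lay within the window and its control peak did not. They were reached by 40 of the 311 pairs, 12.9% (9.59% to 17%), and 2 genes were lost from the window of a widened pair. For 39 of the 45 no other control peak lay in the window either. These 39 are 10.5% of the 371 genes (1.70% of coding genes) near an Eed cKO peak and near no control peak.

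The reached end was more often the far end of the gene than its start. The nearest end was the 3′ end in 25 genes, the 5′ end in 9 and of unknown strand in 11. Only 1 end is counted per gene. Phlda2, Btbd17, Tmem191c, Smarcd3 and Vsig8, counted at the 3′ end, also had a listed start under the Eed cKO peak. A gene with either end of its span already within 2000 bp of the control peak could not count as reached, which the split does not correct for. Listed starts inside the span were not part of this rule, and that of Smarcd3 lay 483 bp from the control peak. For 14 of the 45 genes the control peak already lay inside the gene span, and the Eed cKO peak covered the reached end itself in 22. The control peak had been a median of 4009 bp from that end (range 2160 to 29750). Promoter sequences were found for 34 of the 45 genes, 75.6%. This is under the 80% required for such a check, so the CpG content of the reached genes as a set was not compared with other promoters.

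Fgfr3 and Unc13a were reached at their starts. Unc13a, which primes synaptic vesicles for release, was reached by the peak over Jak3, a cytokine receptor kinase, which had 26989 bp in Eed cKO and 14937 bp in control and grew by 12102 bp on one side. A second widened pair inside Unc13a reached the 3′ end. Foxn1, the transcription factor lost in nude mice and needed for hair keratinisation, had a peak inside the gene of 16420 bp in Eed cKO and 4916 bp in control (3.34), which came within 156 bp of the 3′ end in Eed cKO, against 10822 bp in control. Grhl3, a transcription factor of the epidermal barrier, had 12892 bp in Eed cKO and 8340 bp in control (1.55) and was likewise reached at its 3′ end, 448 bp away in Eed cKO, against 5070 bp in control.

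The imprinted genes Phlda2, which limits placental growth, and Slc22a18, a transporter, were reached by one peak of 16981 bp in Eed cKO (chr7:143489373-143506353), against 4665 bp in control. Slc22a18 was also reached at its 5′ end by the neighbouring pair at Cdkn1c, which came within 1975 bp in Eed cKO, against 6511 bp in control. The peak that reached both genes grew by 13062 bp on the side of Phlda2, whose whole span lay under the Eed cKO peak. The pair at Arhgef16, a guanine nucleotide exchange factor, had 15272 bp in Eed cKO and 2486 bp in control (6.14) and grew to the 3′ ends of Arhgef16 and of Megf6, an EGF-domain gene with another control peak. Oat, the mitochondrial ornithine aminotransferase, was reached at its 3′ end by a peak of 12584 bp in Eed cKO and 2199 bp in control (5.72). Marcksl1, a regulator of actin, was reached from 8599 bp upstream, and its pair had 12404 bp in Eed cKO and 2183 bp in control (5.68).

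The other genes reached by the pairs with the most growth were reached at their 3′ ends. The peak that reached Lgals2, a galectin gene, had 15431 bp in Eed cKO and 5741 bp in control. That of Oaz1, which encodes the antizyme of ornithine decarboxylase, had 15008 bp in Eed cKO and 6360 bp in control. That of St3gal3, a sialyltransferase gene, had 11639 bp in Eed cKO and 3024 bp in control. In the whole set of widened peaks, 33 gene spans lay wholly inside the Eed cKO peak, of which 9 were also wholly inside the control peak and 5 were not touched by it. Those 5, named after their values were seen, were Krt15, Phlda2, Gadd45g, a stress-response gene, and Hils1 and Mpig6b, expressed in testis and in megakaryocytes.

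At the level of single starts, 41 listed starts of 38 genes lay in the gained sequence, and none of the 38 genes had a listed start under any control peak. Starts are listed for 79.9% of coding genes only. Genes without one, such as Dlx3 and Krt15, could not be counted. By the rule a gained start lies under no control peak, so only other starts of these genes could have. The gained starts lay from 66 bp (Carhsp1) to 30332 bp (Fgfr3) from the control edge, and that of Socs3 only 380 bp. The 56 listed starts under the control peaks of the widened pairs were all still under the Eed cKO peak. The 38 genes include Wnt6, Irx4, Jak3, Pdgfa, a platelet-derived growth factor, Socs3, an inhibitor of cytokine signalling, and Igfbp6, which binds insulin-like growth factor II. The last 2 and Pdgfa were named after their values were seen. Of 1005 miRNA hairpins of the RefSeq table, 28 lay in Eed cKO peaks, 47 in control peaks and 2 in gained sequence. Their mature sequences follow, from RefSeq, 5′ to 3′ with the seed (bases 2 to 8) in capitals.
mmu-miR-721: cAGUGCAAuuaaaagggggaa
mmu-miR-6769b-5p: cCUGGUGGguggggaagagc
Their seeds differ, and they lie at chr5:136375777-136375797 and chr8:71631083-71631102, both on the minus strand.

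Of the 859 genes on the lists of developmental regulators, skin cell types and other groups, 27 were at a widened peak, 3.14%, against 186 of 21028 genes of no list, 0.885%. Many list genes are near a peak of any width, so the counts below are set beside the 13.1% of all genes near an Eed cKO peak that were near a widened one. Of 112 homeobox genes outside the Hox clusters, 86 were near an Eed cKO peak and 6 near a widened one, which is 6.98% of the 86. Besides Irx4 they were Dlx3, a regulator of hair and epidermal differentiation, Cdx1, Meox1, Irx3 and Nkx1-1. The Dlx3 pair had 8952 bp in Eed cKO and 1712 bp in control (5.23). It grew by 7081 bp on the left and 159 bp on the right, which put all of Dlx3 under the Eed cKO peak, against 25.8% under the control peak. The other 4 had ratios between 1.52 and 2.14. At Cdx1, an intestinal and axial patterning factor, the peak had 12215 bp in Eed cKO and 5710 bp in control. It grew to within 651 bp of Pdgfrb, a receptor of mesenchymal cells. Of 22 dermal fibroblast genes, 6 were near an Eed cKO peak and Pdgfrb alone was near a widened one, 16.7% of the 6.

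Of 39 Hox genes, 26 were near an Eed cKO peak and 3 near a widened one, 11.5% of the 26 beside 13.1% of all genes. All 3 belonged to a single pair over Hoxc5 and the end of Hoxc6, with 6432 bp in Eed cKO and 3975 bp in control (1.62), which came within 890 bp of Hoxc4 in Eed cKO, against 3618 bp in control. Of 70 Pax, Sox, Fox, T-box and Gata genes, 41 were near an Eed cKO peak and 3, Foxn1, Sox9 and T, near a widened one, 7.32% of the 41. The pair beside Sox9, a regulator of hair follicle stem cells, had 7025 bp in Eed cKO and 1811 bp in control (3.88). It grew by 5103 bp away from the gene and by 111 bp toward it. The pair at T, the brachyury gene of early mesoderm, had 10343 bp in Eed cKO and 5901 bp in control (1.75). Of 53 bHLH and Zic genes, 26 were near an Eed cKO peak and 2, Hes2 and Ascl2, near a widened one, 7.69% of the 26, with ratios of 1.74 and 1.63.

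Of 30 hair follicle genes, 17 were near an Eed cKO peak and 5 of these near a widened one, 29.4% beside 13.1% of all genes near an Eed cKO peak. They were Wnt10a, Foxn1, Dlx3, Sox9 and Bmp4, a ligand that acts in follicle formation, whose pair had 8373 bp in Eed cKO and 5364 bp in control (1.56). Of 30 suprabasal keratinocyte genes, 5 were near an Eed cKO peak and 2, Grhl3 and Krt1, near a widened one, 40.0% of the 5. Counts of this size have wide errors and no test was made. Of 96 secreted ligand genes, 29 were near an Eed cKO peak and 3, Wnt6, Wnt10a and Bmp4, near a widened one, 10.3% of the 29. Of 31 Wnt and Fgf receptor and Notch genes, 9 were near an Eed cKO peak and Fgfr3 alone was near a widened one, 11.1% of the 9.

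The remaining lists had few or no members at widened peaks. Of 240 channel and receptor genes of neurons, 46 were near an Eed cKO peak and 2, the potassium channel genes Kcnh1 and Kcnh2, near a widened one, 4.35% of the 46. The Kcnh2 pair had 18609 bp in Eed cKO and 9058 bp in control (2.05). Among 12 cell cycle inhibitor genes with Ccnd1, 6 were near a control peak. The imprinted inhibitor Cdkn1c was the only one of the 12 near any Eed cKO peak, with 14724 bp in Eed cKO and 9012 bp in control (1.63). Of 39 Polycomb genes, 7 were near an Eed cKO peak, and Cbx6, a PRC1 subunit, near a widened one, 14.3% of the 7 (7752 bp in Eed cKO and 5080 bp in control, 1.53). No Merkel cell, melanocyte, leukocyte, endothelial or housekeeping gene was at a widened peak. The numbers of those near an Eed cKO peak of any width were 8 of 20, 2 of 13, 0 of 18, 3 of 14 and 3 of 30.

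Widened pairs were found on every autosome. Their share of the pairs was highest on chromosome 15 with 27 of 84, 32.1% (23.1% to 42.7%), and chromosome 11 with 56 of 180, 31.1% (24.8% to 38.2%). It was lowest on chromosome 18 with 2 of 31, 6.45%, and on chromosome 10 with 8 of 74, 10.8%, and none of 8 pairs on the X chromosome was widened. These chromosomes were picked after all values were seen, and the differences between them were not tested.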

How the data were processed

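The authors deposited 1 H2AK119ub peak list for Eed cKO and 1 for control, each with the chromosome, start and end of every peak and no score, per the file headers. Bowtie2 2.3.3.1, SAMtools 1.9 and mm10 come from the submitters' processing notes. The method and threshold of peak calling, the part of the inputs in it and how the 2 libraries per genotype were joined were not given in the sources used here. Inputs (3) and the Ring1a/b 2KO library were not analysed here.

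Starts were read as counted from 0, widths are end minus start, and printed positions count from 1. Genes are RefSeq coding genes of GRCm38. Their strand came from a promoter table holding 79.9% of them. A gene is near a peak where either end lies within 2000 bp of it. Growth is one-sided where 1 edge holds 80% or more of the outward base pairs. Pairing, edges and genes reached were tested on simulated data.

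Named pairs were the 10 with the largest ratios, the 10 with the largest gains and those at members of 18 gene lists (up to 4 per list). Genes named were those at such pairs and those reached, with no other control peak, by the 10 pairs with the most growth that reach one. Promoters shown are of reached genes with the start under the Eed cKO peak. A pair that the rule names is not reported here. The widened pairs and the lists were chosen with earlier results of these data known. Python 3.11.15, numpy 2.4.6, pandas 2.3.3 and matplotlib 3.10.9 were used.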

Additional observations from a re-analysis of the deposited data

How the results depend on the processing

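The count of widened pairs depends on the ratio: 151 pairs had a ratio of 2 or more, against 166 with 0.5 or less. With a laxer ratio than 1.5 there were 466. It was 308 when the Eed cKO peak had to cover 50% of the control peak, 308 with peaks within 1000 bp merged (309 narrowed), 246 among peaks of 2000 bp or more and 311 on autosomes. One-sided growth was 79.1% at a limit of 67% and 39.5% at 95%. The number of genes reached was 71 with the gene end itself and no window. It lay between 30 and 55 under the other alternatives. The share at gene ends was 57.2% with a window of 5000 bp and 44.7% when the control peak was located. With peaks merged, 33 of the 35 named pairs stayed at 1.5 or more, and both Wnt10a pairs were no longer 1-to-1. The planned comparison of the promoters of reached genes was void, since under 80% of them had a sequence, and its alternative was not run. No paired analysis was possible because each genotype has 1 joined list with no column per replicate, and for the same reason no replicate could be left out. The lists give no depth or height, so a wider peak, a higher signal and a looser call at the same site cannot be told apart.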

Other observations

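Widened pairs lay next to each other in places that were picked out after their positions were seen. There were 6 runs of 3 or more widened pairs at most 100 kb apart, holding 21 pairs. In 5 of them, every 1-to-1 pair within the run was widened. They lay on chromosome 5 from Kcnh2 to Agap3, on chromosome 7 over Cdkn1c, Slc22a18 and Phlda2, on chromosome 8 with 4 pairs and no coding gene at an end, on chromosome 11 at Etv4 and Meox1, and on chromosome 12 at Dio3. In the run on chromosome 9 beside Tle3, a Groucho family corepressor, 5 of 8 pairs were widened and 1 was narrowed. Over all 1-to-1 pairs 21.2% were widened, and a run begins and ends with a widened pair by definition. Runs of narrowed or other pairs were not counted, and whether widened pairs lie closer together than other pairs was not tested.

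Of these runs, 2 lie at known imprinted domains. Between Ascl2 and Phlda2 (chr7:142946822-143523145) the peaks covered 86.2 kb in Eed cKO and 59.4 kb in control, and 5 of 6 pairs were widened, the other having a ratio of 0.78. In a window from Rtl1 to well past Dio3 (chr12:109544900-110431097) they covered 25.7 kb in Eed cKO and 11.3 kb in control. There 3 of 3 pairs were widened, with ratios of 3.14, 2.29 and 2.67. The pair with 2.67, at chr12:110372068-110374802 in control, lay beyond the end of Dio3 at 110281097, and these totals include it. The peak lists do not separate the parental alleles. More covered sequence in Eed cKO was not particular to these 2 places. Around the run beside Tle3, in a window from Uaca to past Tle3 (chr9:60773206-61518497), peaks covered 85.5 kb in Eed cKO and 59.3 kb in control. Of the 10 pairs there, 6 were widened and 1 was narrowed. Each of these windows was set around a run of widened pairs, so more covered sequence in Eed cKO is favoured by the choice.

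Among the genes reached were 3 of ornithine metabolism, picked out after their names were seen. Oat was 0 bp from the peak in Eed cKO and 5280 bp in control, Oaz1 was 1280 bp away in Eed cKO and 10482 bp in control, and Odc1, ornithine decarboxylase, was 587 bp away in Eed cKO and 2160 bp in control. Whether this exceeds what other sets of 3 genes would show was not tested.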
